A study of Mus musculus with 16 samples.

Results

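PGC-1α is a transcriptional coactivator that is induced in liver by fasting and glucagon, and it carries an RNA recognition motif through which it can contact RNA. The SREBP transcription factors sit on the opposite side of hepatic metabolism: they are made as membrane-bound precursors, are released by cleavage when sterols are low or insulin is high, and switch on the enzymes that build cholesterol, fatty acids and triglycerides. The data described here are regions of RNA recovered with PGC-1α after crosslinking, in 10 genes of this programme. They are the SREBP genes Srebf1 and Srebf2, the fatty acid synthesis genes Fasn and Elovl6, the cholesterol synthesis genes Hmgcs1 and Sc5d, and the triglyceride synthesis genes Gpam, Lpin1, Lpin2 and Dgat2.

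Members were found by position: a region belonged to a gene when its midpoint lay inside the gene's GENCODE M21 bounds on the same strand (build mm10). The 10 genes are 10 of 13398 genes with at least 1 region in any library. They held 3217 of 1331383 regions, called clusters here. Clusters are not filtered for enrichment over input, so a cluster alone does not show that PGC-1α was crosslinked there. A cluster with a deposited −log10 p-value of at least 3 and a deposited log2 fold over input of at least 3 is called an enriched peak, and the genes held 133 of 35942 enriched peaks. They also held 28 of 8478 peaks in the authors' 4 lists of reproducible peaks.

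The libraries were made by single-end eCLIP, in which protein and RNA are joined by ultraviolet light, the protein is precipitated and the attached RNA is sequenced. Glucagon libraries came from primary hepatocytes of C57BL/6J mice that had been left in starvation medium overnight and then received 200 nM glucagon for 3 h. Control libraries came from hepatocytes of the same strain labelled untreated. The overnight starvation is described for all samples, so both treatments share it. The labels give no number of animals, and they do not say what distinguishes the upper from the lower band of the gel. Each treatment and band has 2 replicate IP libraries, 8 in all, and 8 inputs.

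Glucagon lower band replicate 1 stood apart with 26279 clusters, whereas the other libraries had 97629 to 260814. Enriched peaks numbered 979 in that library and 2816 to 7603 in the others. All 6 hepatocyte markers had clusters, with 227 to 500 summed clusters per glucagon library and 217 to 286 per control library. Only 1 of these 6 had an enriched peak. Of 4 markers each, 1 Kupffer, 1 endothelial, 1 stellate and 2 cholangiocyte markers had any cluster and none had an enriched peak. The Kupffer markers Clec4f, Adgre1 and Marco, the endothelial markers Clec4g, Pecam1 and Kdr, the stellate markers Lrat, Dcn and Col1a1, and the cholangiocyte markers Krt19 and Epcam were at 0. Their part in the results below was not tested.

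The sequence just before the downstream start of Srebf1 is shown first, because 3 listed peaks overlap in it. Srebf1 encodes SREBP-1 and spans chr11:60199089-60222581 on the minus strand (ENSMUSG00000020538.15). RefSeq places its transcription starts at 60222581, at 60220627 and, farther downstream, at 60210471. The use of separate first exons is known to give SREBP-1a and SREBP-1c, and the downstream start is that of SREBP-1c, the form that predominates in liver and responds to insulin and to the oxysterol receptor LXR. The 250 bases before this start (chr11:60210472-60210721, minus strand, RefSeq sequence of GRCm38.p6) are printed 5′ to 3′. The 91 bases covered by the 3 listed peaks that lie wholly before the start are in capitals. A listed peak of the control upper band that crosses the start (chr11:60210370-60210482) also reaches into the window and is left in small letters.
Srebf1: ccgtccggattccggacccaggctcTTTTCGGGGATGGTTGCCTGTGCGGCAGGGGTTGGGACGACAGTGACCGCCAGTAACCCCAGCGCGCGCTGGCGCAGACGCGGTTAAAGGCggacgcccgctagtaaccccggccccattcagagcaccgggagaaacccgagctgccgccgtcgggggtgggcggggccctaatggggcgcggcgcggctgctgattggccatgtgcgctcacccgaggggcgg

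This window is the DNA-level promoter of the downstream start and, at the same time, lies in intron 1 of the transcripts that begin upstream. Its GC content is 70.8%, above 91.7% of the 32851 RefSeq promoter windows, whose median is 52.4%. The longest repeat within the 250 bases, allowing 1 free base, is GGGGTTACTNGCGG on the strand opposite to the printed one, and SREBP-1c promoters are known for a pair of LXR elements of this kind. Its 2 copies begin 179 and 128 bases before the start, the copy at 179 wholly inside the capitals and the other outside them. Since it was taken from this window, its presence in 1 of 32851 windows (0.00304%) is a description. Letters of 3 other known elements were also searched on both strands. CCAAT, the NF-Y core, matched 1 time, 30 bases before the start (33.8% of windows hold it). GGGCGG, an Sp1 core, matched 2 times, 65 and 6 bases before the start and outside the capitals (32.7% of windows). The match at 6 bases lies under the listed peak that crosses the start. The E box CACGTG (6.02% of windows) had 0 matches. These are matches of letters, not binding sites.

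Srebf1 had 39 enriched peaks among its 199 clusters, or 19.6%, the highest share of the 10 genes. Of the 39, 32 had their midpoint within 1500 nt of the downstream start, in 7 libraries, with 19 upstream of it and 13 downstream. No enriched peak lay within 1500 nt of either of the other 2 starts. Inside that 1500 nt span 32 of 69 clusters were enriched (46.4%), and elsewhere in the gene 7 of 130 were (5.38%). The span was placed at the start with the most enriched peaks around it, so its share was high by selection. The contrast is a description. The peaks thus covered both sides of the start. Those wholly on its upstream side lay in RNA that is annotated only in transcripts beginning farther upstream. Of the 19, the peak with its midpoint at -3 nt crossed the start.

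In the span, glucagon upper band libraries had 1 enriched peak of 5 clusters and 4 of 10, and glucagon lower band libraries 0 of 6 and 3 of 7. Control upper band libraries had 5 of 12 and 9 of 16, and control lower band libraries 3 of 4 and 7 of 9. The enriched counts of the lower bands touched at 3 and those of the upper bands did not overlap. Over the whole gene the upper bands did overlap, as given below. The share of all genes that separate in a single band was not computed.

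**Figure D1:**
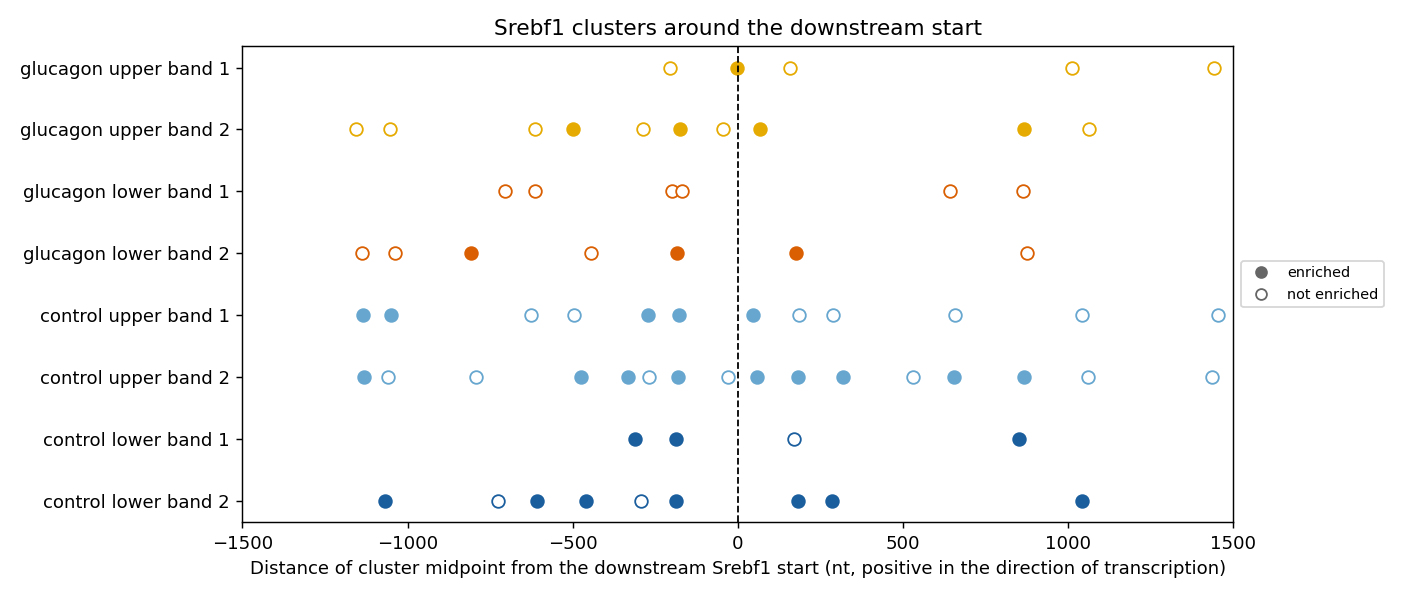
Each point is an Srebf1 cluster within 1500 nt of the downstream start, placed by the distance of its midpoint from that start (nt, positive in the direction of transcription), with a row per library; filled points are enriched. A column of clusters near -180 nt runs through all 8 libraries, filled in 6, and the filled points number 0 to 4 in a glucagon row and 3 to 9 in a control row.

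The region under the capitals (chr11:60210606-60210696) had a cluster in every library. Its highest log2 fold over input was 2.86 and 3.95 in glucagon upper band libraries and 3.05 and 4.80 in glucagon lower band libraries. It was 3.57 and 3.25 in control upper band libraries and 5.57 and 3.03 in control lower band libraries. The treatments overlapped, with a mean of 3.66 ± 0.89 in glucagon and 3.86 ± 1.17 in control libraries (SD, n = 4 each). The authors listed a peak here in the glucagon upper, control upper and control lower band. The value of 5.57 was the highest fold of any enriched peak of the 10 genes, whose folds ran from 3.00 to 5.57 with a median of 3.44.

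A second Srebf1 region (chr11:60210362-60210482), in the 5′ UTR of the downstream transcript, was found in the upper band only. Its log2 fold was 3.77 and 3.89 in glucagon upper band libraries and 3.27 and 3.08 in control upper band libraries, so glucagon values were above control values, and it was enriched in all 4. No lower band library had a cluster there. The other 5 listed Srebf1 regions stood in the control upper band list alone. At chr11:60210121-60210183 no glucagon library had a cluster, and at chr11:60211572-60211632 the log2 fold averaged 2.22 ± 0.12 in glucagon libraries and 3.46 ± 0.45 in control libraries (SD, n = 2 each). These regions were listed from the control upper band, so folds there were high by selection, and at chr11:60211572-60211632 no control lower band library had a cluster. The glucagon values at that region were 2.14 in upper band replicate 2 and 2.30 in lower band replicate 2, so treatment and band are mixed. The control mean used a replicate 1 cluster that shares 1 base with the region. With a larger overlap required, the control mean was 3.17 ± 0.04. In all, 7 of the 12 peaks of the 10 genes in the control upper band list were Srebf1 peaks.

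Across the whole gene, Srebf1 had 1 and 6 enriched peaks in glucagon upper band libraries and 0 and 3 in glucagon lower band libraries. It had 5 and 11 in control upper band libraries and 4 and 9 in control lower band libraries. Every glucagon library of the lower band was below every control library of that band, and in the upper band the value of 6 in a glucagon library lay above the 5 of a control library. The mean was 2.5 ± 2.65 with glucagon and 7.25 ± 3.30 in control (SD, n = 4 each), a difference of -4.75 that did not pass the test (exact two-sided permutation within bands, p = 0.167, adjusted p = 1 over 3110 genes). That exact permutation test has 36 assignments and cannot go below p = 0.0556. The labels do not say that replicates were separate cultures or animals, so p-values measure the spread between these libraries. In bulk samples such as these, fewer cells of a type and less RNA per cell cannot be told apart.

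Clusters of Srebf1, enriched or not, numbered 23 and 33 in glucagon upper band libraries and 10 and 23 in glucagon lower band libraries. They numbered 26 and 34 in control upper band libraries and 24 and 26 in control lower band libraries. The lower bands were again separate and the upper bands overlapped. Without glucagon lower band replicate 1 the difference in enriched peaks was -4.0 (exact permutation p = 0.222). Per 1000 enriched peaks of a library, Srebf1 had 0.54 ± 0.478 in glucagon and 1.31 ± 0.372 in control libraries (SD, n = 4 each; exact permutation p = 0.111). On this scale the lower bands overlapped, with 0 and 1.07 in glucagon and 0.973 and 1.58 in control libraries. The upper bands were separate, with 0.304 and 0.789 against 1.01 and 1.69. Library totals were themselves separate in the lower band, with 979 and 2816 enriched peaks in glucagon and 4110 and 5694 in control libraries. The share of all genes separate in a single band was not computed.

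Srebf2 encodes SREBP-2, which drives the cholesterol genes, and it differed from Srebf1 (chr15:82147181-82205379, plus strand, ENSMUSG00000022463.8). It had more clusters, 355, but 5 enriched peaks, or 1.41%, against 19.6% for Srebf1. Enriched peaks numbered 1 and 1 in glucagon upper band libraries, 0 and 0 in glucagon lower band libraries, 1 and 0 in control upper band libraries and 1 and 1 in control lower band libraries. The treatments were separate in the lower band, by 1 peak, and overlapped in the upper band. Of the 5 peaks, 4 lay within 1000 nt after a start, and the listed region at chr15:82147636-82147721 lay 410 nt after one. Its log2 fold was 1.54 and 3.39 in glucagon upper band libraries, 2.54 in glucagon lower band replicate 2, 2.91 and 2.23 in control upper band libraries and 3.28 and 4.70 in control lower band libraries. Glucagon lower band replicate 1 had no cluster there, and the others overlapped between treatments. The authors listed this region in the control lower band only, so folds of that group were high by selection. Neither SREBP gene had a cluster over the microRNA genes it hosts, Mir33 in Srebf2 and Mir6921 and Mir6922 in Srebf1.

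Fasn encodes fatty acid synthase, which makes palmitate (chr11:120805846-120824547, minus strand, ENSMUSG00000025153.9). It had the highest share of clusters in coding sequence among the 10 genes, 55.1% of 136, but 3 of its 5 enriched peaks lay in the 5′ UTR and 2 in an intron within 500 nt of an exon. The counts were 0 and 1 enriched peaks in glucagon upper band libraries, 0 and 0 in glucagon lower band libraries, 1 and 1 in control upper band libraries and 0 and 2 in control lower band libraries. All bands overlapped between treatments. The listed region at chr11:120823603-120823743 had log2 folds of 2.39 and 3.81 in glucagon upper band libraries, 4.04 and 1.90 in control upper band libraries and 4.07 in control lower band replicate 2, with no cluster in the glucagon lower band.

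Elovl6 encodes the elongase that takes palmitate to stearate (chr3:129532355-129638495, plus strand, ENSMUSG00000041220.10), and all its 18 enriched peaks of 571 clusters lay in intron 1. It had 2 and 7 enriched peaks in glucagon upper band libraries and 0 and 1 in glucagon lower band libraries. It had 2 and 3 in control upper band libraries and 0 and 3 in control lower band libraries. Glucagon upper band replicate 2 was highest, and the treatments overlapped in both bands. Elovl6 had the smallest p of the comparison of bands on unscaled counts, with 3.5 ± 2.38 enriched peaks in upper and 1.0 ± 1.41 in lower band libraries (SD, n = 4 each; exact permutation p = 0.222, adjusted p = 1). Its region at chr3:129532964-129533016, listed in the glucagon upper band only, had clusters in the upper band alone. Log2 folds there were 4.32 and 2.95 in glucagon and 3.00 and 2.46 in control libraries, the glucagon values being high by selection. Another region, chr3:129534292-129534352, was listed in the control upper band only, so folds of that group were high by selection. Its log2 fold averaged 2.90 ± 0.11 in glucagon and 3.27 ± 0.32 in control libraries (SD, n = 3 each).

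Hmgcs1 encodes the cytosolic HMG-CoA synthase of the cholesterol pathway (chr13:119690379-119708260, plus strand, ENSMUSG00000093930.2). It had 0 enriched peaks in all 4 glucagon libraries, against 2 and 2 in control upper band libraries and 0 and 3 in control lower band libraries. The upper bands were separate and the lower bands shared the value 0. The mean was 0 ± 0 with glucagon and 1.75 ± 1.26 in control (SD, n = 4 each; exact two-sided permutation p = 0.167, adjusted p = 1 over 3110 genes), also -1.75 without glucagon lower band replicate 1. The gene itself was covered in both treatments, with 16 and 24 clusters in glucagon upper band libraries, 7 and 24 in glucagon lower band libraries, 17 and 19 in control upper band libraries and 17 and 17 in control lower band libraries.

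All 7 enriched peaks of Hmgcs1 lay in intron 1 within 1000 nt of the start. The listed region (chr13:119690669-119690814) had a cluster in every library, with log2 folds of 2.62 and 2.37 in glucagon upper band libraries and 1.88 and 1.54 in glucagon lower band libraries. The folds were 3.23 and 3.53 in control upper band libraries and 3.63 and 3.20 in control lower band libraries. All glucagon values lay below all control values, with a mean of 2.10 ± 0.48 in glucagon and 3.40 ± 0.22 in control libraries (SD, n = 4 each). The authors listed this region in the control upper band only, so its control upper band folds were high by selection. The lower band libraries did not enter that list, but the region is singled out here for its folds in all libraries, theirs included. Of the 21 listed regions, 4 had a cluster in all 8 libraries, and the treatments overlapped in the Srebf1, Gpam and Lpin2 regions among them. The share of listed regions of other genes that separate in this way was not computed.

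**Figure D2:**
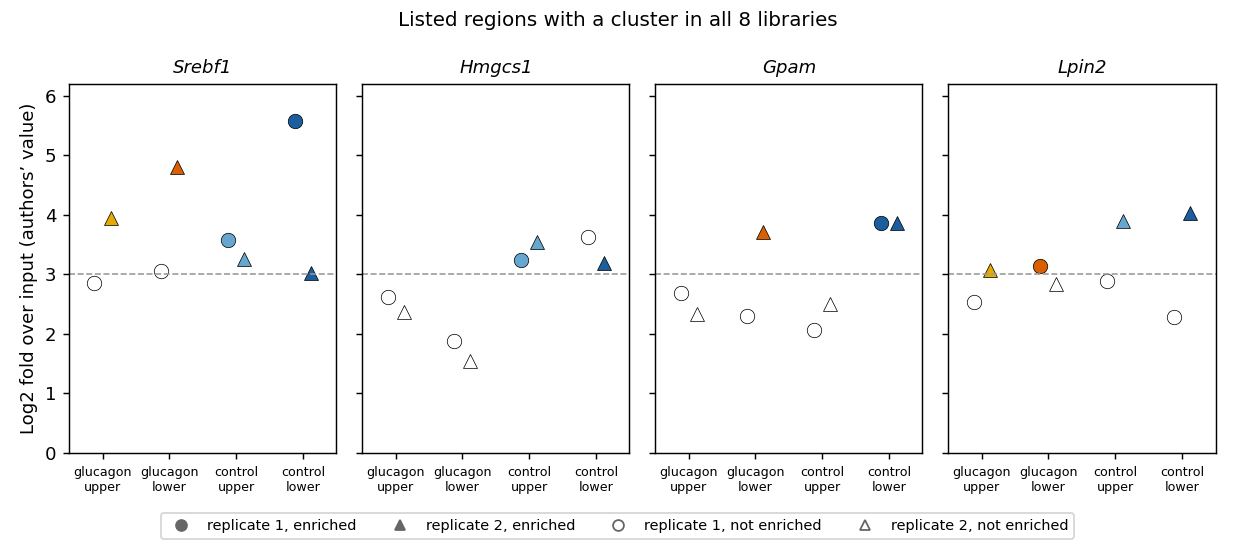
Deposited log2 fold over input in each library for the 4 listed regions that had a cluster in all 8 libraries; circles are replicate 1, triangles replicate 2, filled points are enriched peaks and the dashed line is a log2 fold of 3. The Hmgcs1 region lies between 1.54 and 2.62 in glucagon libraries and between 3.20 and 3.63 in control libraries, whereas glucagon and control points overlap in the Srebf1, Gpam and Lpin2 regions.

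Sc5d encodes sterol C5-desaturase, a late enzyme of cholesterol synthesis (chr9:42251595-42264256, minus strand, ENSMUSG00000032018.14), and 40.8% of its 103 clusters lay in coding sequence. All 4 of its enriched peaks lay in intron 1 near the start. They numbered 1 and 1 in glucagon upper band libraries, 0 and 0 in glucagon lower band libraries, 0 and 0 in control upper band libraries and 0 and 2 in control lower band libraries. Glucagon was above control in the upper band by 1 peak and overlapped it in the lower band. The listed region (chr9:42263754-42263794) had log2 folds of 4.67 and 3.95 in glucagon upper band libraries, 2.07 in glucagon lower band replicate 2, 2.05 in control upper band replicate 2 and 4.07 in control lower band replicate 2. It was listed in the glucagon upper band only, so folds of that group were high by selection.

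Gpam encodes the mitochondrial glycerol-3-phosphate acyltransferase that starts triglyceride synthesis (chr19:55067268-55127238, minus strand, ENSMUSG00000024978.11). It had 19 enriched peaks of 377 clusters, of which 9 lay in intron 3, all within 1500 nt of the RefSeq start at 55099477, 7 in intron 5, and 1 each in introns 7, 10 and 18. None lay within 1500 nt of the upstream start at 55127238. Enriched peaks numbered 3 and 2 in glucagon upper band libraries, 0 and 2 in glucagon lower band libraries, 2 and 3 in control upper band libraries and 2 and 5 in control lower band libraries. The treatments overlapped in both bands.

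The Gpam region in intron 3 at chr19:55099082-55099148 had log2 folds of 2.69 and 2.33 in glucagon upper band libraries and 2.30 and 3.72 in glucagon lower band libraries. Control upper band libraries had 2.07 and 2.50 there and control lower band libraries 3.85 and 3.86, which were the highest. The intron 5 region at chr19:55094169-55094264 had 3.10 and 3.05 in glucagon upper band libraries and 2.30 in glucagon lower band replicate 2, against 2.82 and 1.73 in control upper band libraries and 1.45 in control lower band replicate 1. The authors listed the intron 5 regions in the glucagon upper band and the intron 3 regions in the 2 control bands, but both introns had clusters in both treatments. Folds in the group that listed a region were high by selection.

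Lpin1 and Lpin2 encode lipins, phosphatidate phosphatases that make diacylglycerol and also act as coregulators; Lpin1 is itself a known target of PGC-1α in liver. Lpin1 (chr12:16535669-16610966, minus strand, ENSMUSG00000020593.15) had the fewest clusters for its length, with a median of 5.51 per 10 kb over the libraries, and 4 enriched peaks of 286 clusters. These were 0 and 3 in glucagon upper band libraries, 0 and 1 in control upper band libraries, and 0 in each lower band library of either treatment. They overlapped between treatments. Its listed region at chr12:16581007-16581123 also had clusters in the upper band alone, with log2 folds of 3.08 and 3.21 in glucagon and 2.49 and 1.31 in control libraries. The authors listed it in the glucagon upper band only, so its glucagon folds were high by selection.

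Lpin2 (chr17:71182560-71249817, plus strand, ENSMUSG00000024052.17) had the most clusters for its length, with a median of 16.4 per 10 kb, and was the only one of the 10 genes with an enriched peak in every library. It lies inside the bounds of Gm26561, a long noncoding RNA gene on the same strand, and reads of the 2 genes cannot be told apart. Enriched peaks numbered 2 and 4 in glucagon upper band libraries, 1 and 5 in glucagon lower band libraries, 2 and 3 in control upper band libraries and 3 and 7 in control lower band libraries. The treatments overlapped in both bands. Of its 27 peaks, 26 lay in intron 1 of an annotated transcript. The region at chr17:71191190-71191326 had a cluster in every library and was listed in 3 groups. Its log2 fold was 2.54 and 3.08 in glucagon upper band libraries, 3.14 and 2.84 in glucagon lower band libraries, 2.89 and 3.90 in control upper band libraries and 2.28 and 4.03 in control lower band libraries. It gave the single peak of the 10 genes in the glucagon lower band list.

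Dgat2 encodes the acyltransferase that completes triglycerides (chr7:99153658-99182719, minus strand, ENSMUSG00000030747.5), and all 5 of its enriched peaks were in the last intron, intron 7 of 7, and none was near the start. They numbered 1 and 2 in glucagon upper band libraries, 0 and 0 in glucagon lower band libraries, 1 and 0 in control upper band libraries and 0 and 1 in control lower band libraries, with overlap in both bands. The listed region at chr7:99155629-99155745, 27032 nt after the start, had log2 folds of 4.67 and 2.72 in glucagon upper band libraries, 1.65 in glucagon lower band replicate 2, 4.08 and 2.23 in control upper band libraries and 3.61 in control lower band replicate 2. It was listed in the glucagon upper band only, so folds of that group were high by selection.

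**Figure D3:**
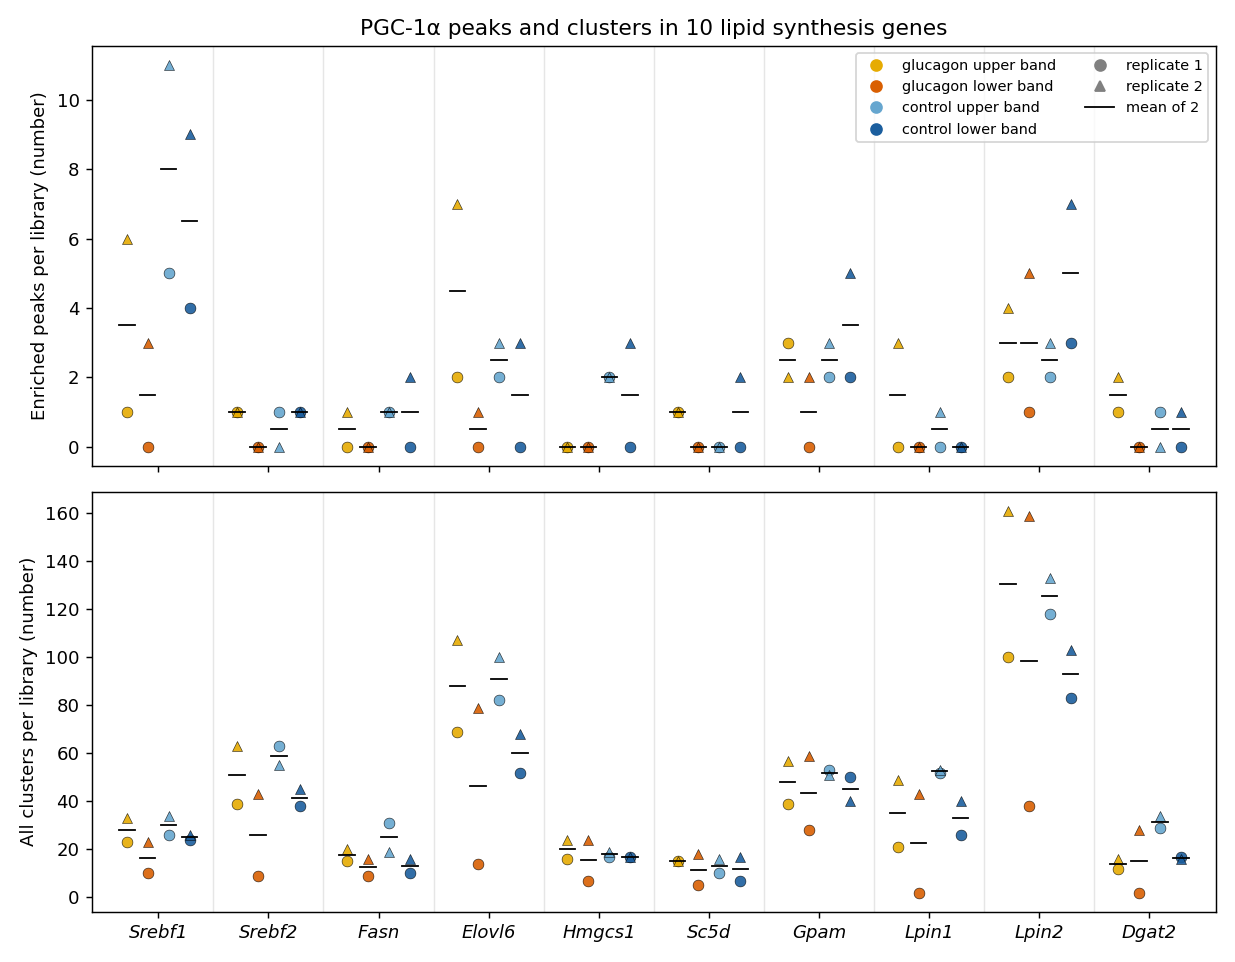
Number of enriched peaks (top) and of all clusters (bottom) per library for the 10 genes, with groups ordered glucagon upper, glucagon lower, control upper and control lower band; circles and triangles are replicates 1 and 2 and bars are means of 2. Srebf1 reaches 6 enriched peaks in glucagon and 11 in control libraries, and Hmgcs1 is at 0 in all glucagon libraries.

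Taking the 10 genes side by side, 6 had fewer enriched peaks with glucagon than in control (Srebf1, Srebf2, Fasn, Hmgcs1, Gpam and Lpin2, the last turning to more once scaled to the library's enriched peaks), 3 had more (Elovl6, Lpin1 and Dgat2) and Sc5d had equal means. Among all 3110 genes tested, 54.8% had fewer and 35.3% had more, so the members' split is near the background. In 0 of the 10 were the treatments separate in both bands, against 4.12% of all genes with fewer and 0.322% with more. No member passed the exact permutation test, whose p was 0.167 for Srebf1 and Hmgcs1 and 0.5 or above for the others. Scaled to each library's enriched peaks, 5 had fewer (55.2% of all genes) and 5 had more (44.8%), with 0 separate in both bands (4.89% of all genes with fewer and 1.03% with more). Between bands, 8 had more enriched peaks in the upper band than in the lower (68.8% of all genes), Lpin2 had fewer (21.6%) and Sc5d the same. None of the 8 was separate in both treatments (2.96% of all genes).

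Lpin2 was the exception once enriched peaks were scaled to each library's total. Per 1000 enriched peaks it had 0.608 and 0.526 in glucagon upper band libraries against 1.02 and 1.78 in glucagon lower band libraries. In control it had 0.406 and 0.46 in upper band libraries against 0.73 and 1.23 in lower band libraries. The upper band was below the lower band in both treatments, with means of 0.5 ± 0.0874 and 1.19 ± 0.441 (SD, n = 4 each). The exact permutation p was 0.0556, the smallest it can be, and the adjusted p was 1. Among all 3110 genes 1.16% were separate in that direction. The 1.02 in glucagon lower band replicate 1 rests on 1 enriched peak in a library of 979. Unscaled, the bands overlapped (exact permutation p = 0.556).

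Counting all clusters, enriched or not, 7 of the 10 genes had fewer with glucagon (80.3% of all 13398 genes) and 3 had more (14.0%), but 2 of the 10 had fewer once clusters were scaled to the library's total (60.3% of all genes, with 39.7% higher). Unscaled, 0 of the 10 were separate in both bands (8.43% of all genes with fewer and 0.351% with more). Srebf1, Srebf2, Fasn, Elovl6 and Gpam changed direction with the scaling. On the scaled values 3 members had every glucagon library above every control library of its band, whereas 4.12% of all genes did, and 0 had every glucagon library below (9.08% of all genes). The 3 were Elovl6, Sc5d and Lpin2. The shares of all genes include genes with as little as 1 cluster, whereas the members had 103 to 895. Shares among genes covered as well as the members were not computed, so the 2 are not alike.

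Lpin2 had 1.02 and 0.775 clusters per 1000 in glucagon upper band libraries and 1.45 and 0.846 in glucagon lower band libraries, against 0.492 and 0.51 in control upper band libraries and 0.626 and 0.578 in control lower band libraries. The mean was 1.02 ± 0.301 with glucagon and 0.551 ± 0.062 in control (SD, n = 4 each). Elovl6 had 0.707 and 0.515 clusters per 1000 in glucagon upper band libraries and 0.533 and 0.42 in glucagon lower band libraries, against 0.342 and 0.383 in control upper band libraries and 0.392 and 0.381 in control lower band libraries. Both genes were separate between treatments, and their glucagon values were highest in the replicate 1 libraries, which had the fewest clusters of their group. Sc5d was separate by a small margin, with 0.0957 clusters per 1000 in glucagon lower band replicate 2 and 0.0953 in control lower band replicate 2. For all 3 the exact two-sided permutation p was 0.0556, the smallest it can be, with an adjusted p of 0.421 over 13398 genes.

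The authors' lists held a peak of all 10 genes in at least 1 group, where 9.4% of all genes had a listed peak. By group, 8 of the 10 were listed in the glucagon upper band (5.39% of all genes), 1 in the glucagon lower band (0.866%), 6 in the control upper band (7.34%) and 4 in the control lower band (4.89%). The genes were chosen with these lists known, so nothing follows from these shares. Of the 28 listed peaks, 13 coincided with enriched peaks in replicate 1 and replicate 2 of their group and 15 with an enriched peak in 1 replicate only. After joining overlapping peaks the 28 gave 21 regions, of which 5 were listed in more than 1 group. Clusters were found in both treatments at 20 of the 21 regions.

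The place of the peaks in the genes was not used to choose them. Of 133 enriched peaks 126 lay in introns (94.7%, exact 95% binomial interval 89.5% to 97.9%), against 71.4% of all their clusters. The interval covers counting error only and takes the peaks as independent. A site enriched in several libraries was counted in each of them, so the interval may be too narrow. Coding sequence held 514 clusters and 0 enriched peaks, the 3′ UTRs 273 clusters and 0 enriched peaks, and the 5′ UTRs 7 enriched peaks. The shares in introns, coding sequence and UTRs were not computed for other genes, so they are not shown to be particular to these. Intron 1 alone held 107 of the 133 (80.5%), where other protein-coding genes had 64.1% of their enriched peaks there. Srebf1 gave 39 of the 107, and without it the share was 72.3%. Gpam and Dgat2 had none in intron 1. The peaks were 8 to 156 nt long, with a median of 65 nt.

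The distance to a start separated the genes. A peak was counted as near a start from 500 nt before to 1000 nt after any start of the gene in GENCODE basic or RefSeq. By this measure 70 of the 133 enriched peaks were near a start (52.6%), where 33.2% were in other protein-coding genes. Shares per library ran from 0% to 80.0% in the 10 genes and from 27.9% to 35.2% in the others. All peaks of Hmgcs1 and Sc5d, 4 of 5 in each of Srebf2 and Fasn, 25 of 39 in Srebf1, 12 of 27 in Lpin2, 8 of 19 in Gpam, 5 of 18 in Elovl6, 1 of 4 in Lpin1 and 0 of 5 in Dgat2 were near a start. Without Srebf1 the share was 47.9%. GENCODE basic starts alone leave out the downstream start of Srebf1, and with them 33.8% were near a start, beside 32.3% in other protein-coding genes. Srebf1 then had 0 of 39 near a start, while the other 9 genes kept 45 of 94. Of all clusters, enriched or not, 10.9% in the 10 genes and 9.61% in other genes were near a start.

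**Figure D4:**
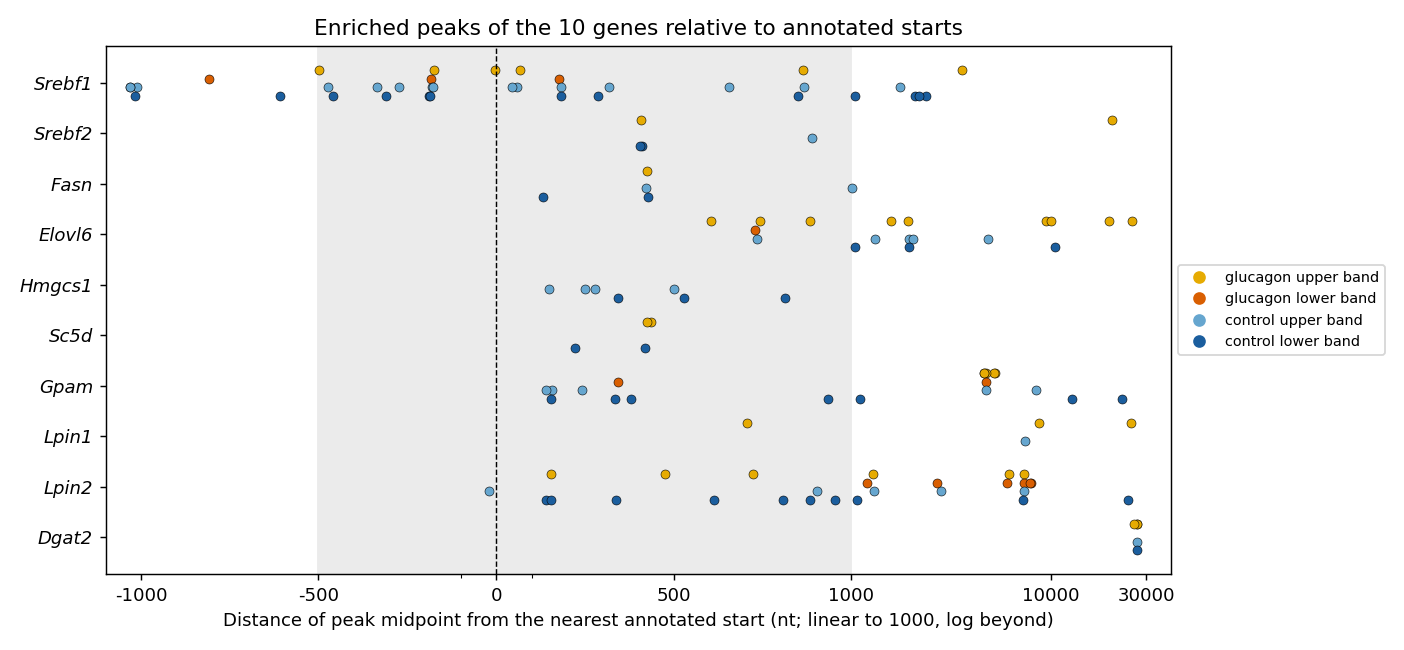
Each point is an enriched peak, placed by the distance of its midpoint from the nearest annotated start of its gene (nt; linear to 1000 nt, logarithmic beyond), coloured by group; the grey band runs from 500 nt before to 1000 nt after a start. Peaks of Hmgcs1 and Sc5d all lie in the grey band, Srebf1 is alone in having peaks well before a start, and all 5 peaks of Dgat2 lie far beyond it.

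The RefSeq promoter windows of the other members held few clusters. For Fasn, Elovl6, Hmgcs1, Sc5d, Lpin1 and the upstream Gpam start, most of the window lies outside the gene's bounds. Clusters of a gene lie inside its bounds by definition, so those windows could hold few or none, and their counts say nothing about these genes. Of the 10 genes 9 matched the table and Dgat2 did not. Besides the downstream Srebf1 start, with 16 clusters and 10 enriched peaks in its window of 250 bases before to 50 after the start, only the start of Lpin2 at 71183978 had an enriched peak there, 1 among 13 clusters. The windows of Srebf2 at 82147269 and of Lpin2 at 71204654 held 5 clusters each and no enriched peak, and the remaining windows held none.

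Of 50 other genes of fatty acid, cholesterol and triglyceride synthesis and their regulation, 47 had a cluster and 15 an enriched peak. Peaks of 2 were listed by the authors, 1 gene in the glucagon upper band and 2 in the control upper band. Agpat1, which adds the second acyl chain in triglyceride synthesis, had 2 listed peaks and 10 enriched peaks among 62 clusters, with 1 and 4 in glucagon upper band libraries, 0 and 0 in glucagon lower band libraries, 2 and 2 in control upper band libraries and 0 and 1 in control lower band libraries. Acsl3, an acyl-CoA synthetase, had 3 listed peaks and 4 enriched peaks among 199 clusters, with 0 and 1 in glucagon upper band libraries and 2 and 1 in control upper band libraries. Both overlapped between treatments.

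Finally, the share of a library's enriched peaks found in Srebf1 was compared over the 8 libraries with that of 403 genes with at least 20 enriched peaks. The most alike were Cpne1 (Pearson r = 0.94) and the overlapping gene Gm28036, which holds the same peaks, and then Rbm14 (r = 0.90). These are descriptions over 8 libraries that share their totals.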

How the data were processed

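PGC-1α eCLIP was measured in primary mouse hepatocytes, in 8 IP libraries with a peak file each. The submitters' processing notes name cutadapt, STAR and mm10, without versions. The peak caller is not given in the sources used here, nor is the criterion for a reproducible peak. The files have no header. From its values, the first deposited column was taken as −log10 of the p-value against input, capped at 400, and the second deposited column as a log2 fold. They are the authors' own and were used only to filter or describe peaks. In the lists they differ from the value of either library. Clusters were called per library, and no read counts were analysed here, so the depth is unknown beyond the number of clusters. Input libraries were not analysed here.

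Clusters were counted per gene by midpoint and strand (GENCODE M21, mm10). Two-sided exact permutation tests set glucagon against control within bands, and upper against lower band within treatments, over all genes, with Benjamini-Hochberg adjustment, checked on simulated data. Regions were classed with exon before intron. Regions on the same strand overlapped if they shared 1 base or more. Groups came from the source names. Alternatives covered the thresholds, placement, scaling, replicate block and each library left out. The 10 genes and the lists were chosen with earlier results of these data known; the 10 genes, up to 6 pathway genes with the most listed peaks and the 3 genes most like the member with the most enriched peaks are named. Starts from RefSeq, and the values without Srebf1, were added after seeing the data. Promoter sequences came from RefSeq (GRCm38.p6); sequences of other peaks are not printed. The tools were bedtools 2.31.1, and Python 3.11.15 with matplotlib 3.10.9, scipy 1.17.1, pandas 2.3.3 and numpy 2.4.6. On 1 library bedtools gave the same 514 clusters of the 10 genes, with a difference of 0.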

Additional observations from a re-analysis of the deposited data

How the results depend on the processing

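The exact permutation p cannot go below 0.0556, so no alternative could bring a member past the test. The smallest p of the comparison of bands, 0.222, was 0.0556 at a log2 fold of 2, scaled, and without control lower band replicate 2. Depth is known only as the number of clusters, and glucagon lower band replicate 1, with 26279, limits what the lower band comparison can show. The number of the 10 genes with fewer enriched peaks under glucagon, 6, was 5 or 6 under other thresholds, placement and scaling, and 5 to 8 with 1 library left out. Lpin2 turned to more at a log2 fold of 2, scaled, and without glucagon lower band replicate 1 or control lower band replicate 2, and Elovl6 to fewer without glucagon upper band replicate 2 (with Lpin1) or control lower band replicate 1. The number with more enriched peaks in the upper band, 8, was 10 at a log2 fold of 2 and 9 at a −log10 p of 5, Lpin2 turning to more in both. It was 3 at a log2 fold of 4 and ranged from 5 to 9 with 1 library left out, the 5 being without control lower band replicate 1. The number with fewer clusters under glucagon, 7, was 2 when scaled to the library's clusters and 5 to 10 with 1 library left out. Replicate numbers were not shown to pair libraries: the differences between replicates 1 and 2 correlated by 0.110 between treatments in the lower and 0.0718 in the upper band, and between bands by 0.240 in glucagon and 0.0529 in control libraries. With the replicate block the counts stayed at 6, 8 and 7, and its p cannot go below 0.125. Members with a listed peak fell to 6, against 10, when an enriched peak was required in both libraries. With intron before exon, 100% of enriched peaks were intronic. The share near a start was 33.8% with GENCODE basic starts only, which changed Srebf1 alone. Except where the construction of the alternative shows it, the cause was not tested. The peak nearest to the fold threshold inside it was in Lpin2 at 3.004, and the nearest outside was in Lpin2 at 2.9998.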
